A study of Mus musculus with 6 samples.

Results

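The astrocyte transcripts examined here were 32 genes whose mRNA is typical of astrocytes, measured in microglia that had been sorted from the spinal cord of SOD1 G93A and WT mice. The members were chosen by name, with earlier results of these data known, and all 32 were found among the 18193 genes of the arrays. Each gene was read by its probe set of highest mean signal over the 6 arrays. The SOD1 G93A group consisted of 3 arrays from male mice at 90 days of age, an early symptomatic stage, carrying, at high copy number, a transgene for human SOD1 that bears a mutation found in familial amyotrophic lateral sclerosis (ALS). The WT group consisted of 3 arrays from male control littermates of the same age, and both genotypes were on the B6SJL background (line B6SJL-Tg(SOD1-G93A)1Gur/J). Every array held RNA of CD11b-positive cells from the lumbar cord, pooled from at least 6 mice, so that the spread between arrays is a spread between pools. A transgenic line can differ from other models of ALS, and the samples cover 1 line, 1 sex and 1 age.

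Astrocytes are the glial cells that take up glutamate and potassium around synapses, move water and ions at the blood vessels through their end-feet, and pass small molecules to each other through gap junctions. They supply neurones with lactate and glutamine and store the glycogen of the nervous system. In ALS and its mouse models they become reactive, with thickened processes rich in intermediate filaments, and the loss of the glutamate transporter encoded by *Slc1a2* from the spinal cord is a known feature of the disease. A sort on CD11b, an integrin of microglia and other myeloid cells, is meant to leave astrocytes out.

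Of these transcripts, 12 of 32 were lower in SOD1 G93A than in WT microglia, 1 was higher and 19 did not pass the test. The threshold was an adjusted p under 0.05 from limma, a linear model in which the variance of a probe set borrows from all probe sets. The share of lower members was 37.5%, where 2.53% of all genes were lower. Because earlier results were known when the members were chosen, this and the further comparisons with all genes are descriptions and not independent tests. The 12 were *Slc39a12*, *Cpe*, *Slc1a2*, *Slc1a3*, *Sparcl1*, *Aldoc*, *Kcnj10*, *Gjb6*, *Slc4a4*, *Ndrg2*, *Fam107a* and *Gpr37l1*. *Gstm5* was the 1 member that was higher, where 4.09% of all genes were. Both shares of all genes also stand beside the counts of every role and marker list below. The median log2 fold change of the 32 members was -0.58, against 0.022 for all genes, and 3.12% of all genes had a value at or below that of this median. The estimate was negative for 27 of 32 members, against 45.6% of all genes. In 20 of 32 members (62.5%) every SOD1 G93A array lay below every WT array, as in 10.9% of all genes, and in 1 member, *Gstm5*, every one lay above, as in 16.6% of all genes. In RNA from a pool of cells, fewer astrocytes among the sorted cells, less RNA per astrocyte and a change in the sorted cells' own transcripts cannot be told apart. The paper reports more CD11b-positive cells from SOD1 G93A than from control mice. Whether this lowered the share of RNA from other cells was not tested.

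**Figure D1:**
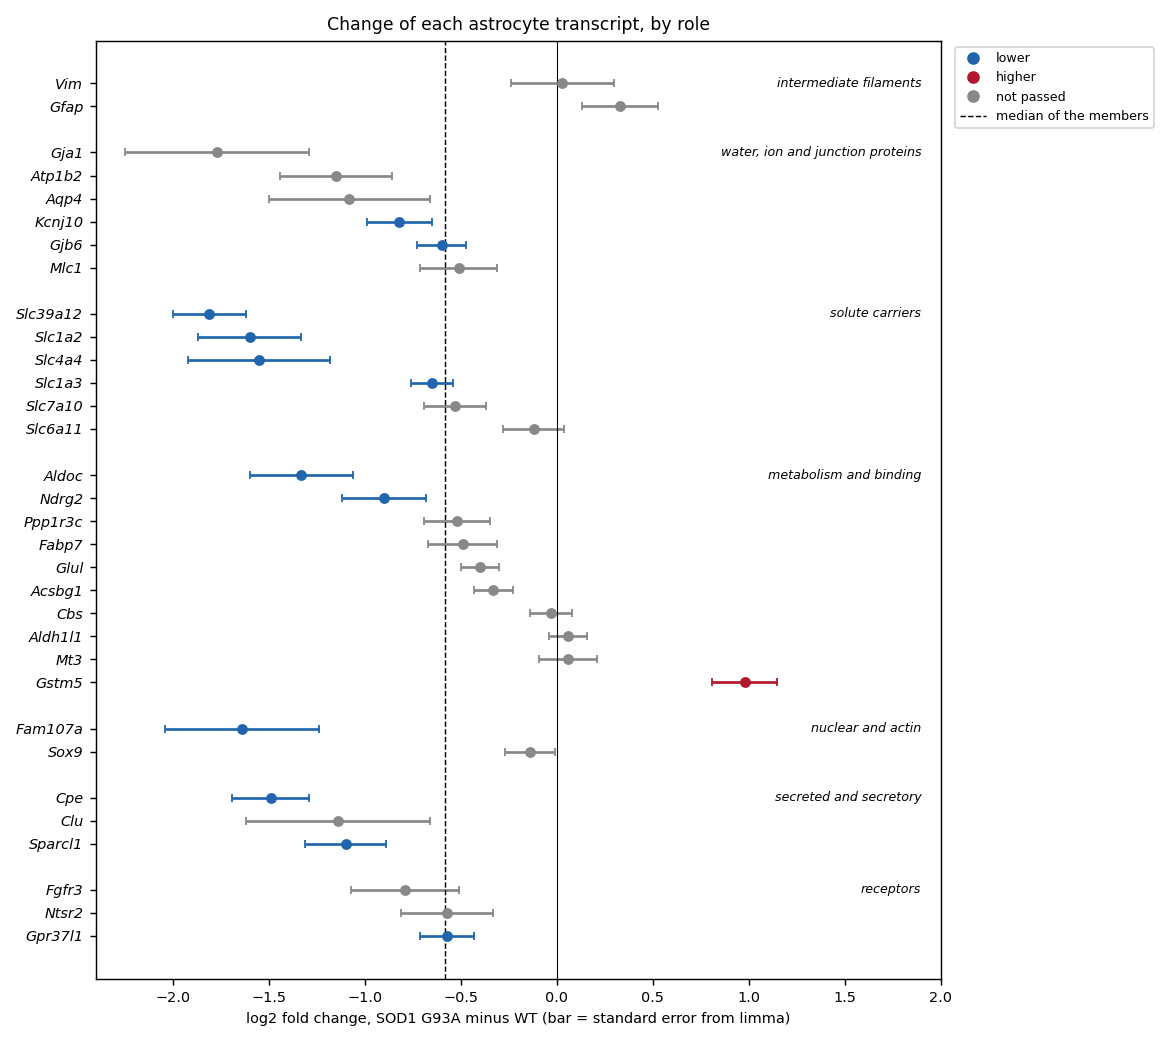
Log2 fold change (SOD1 G93A minus WT) of each of the 32 astrocyte transcripts, grouped by role, with the standard error from limma. Blue points passed downward and red upward at an adjusted p under 0.05, grey points did not pass, and the dashed line is the median of the members, -0.58.

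The check of the sort and of the arrays bears on every value that follows. *Itgam*, which encodes CD11b, had a log2 fold change of -0.02 (adjusted p = 0.952 from limma), and 12 microglial markers had a mean log2 signal between 11.62 and 11.85 in SOD1 G93A and between 11.41 and 11.67 in WT arrays. Of the 12, 2 were higher, *Trem2* (1.28), of a lipid-sensing receptor, and *Fcrls* (1.07), of a scavenger receptor-like protein, 1 was lower, *Sall1* (-0.83), of a transcription factor of microglial identity, and 9 did not pass. Every SOD1 G93A array was above every WT array for 5 of the 12 and below for 2, against 16.6% and 10.9% of all genes. A mean log2 signal above 13 is taken here as near saturation, where a difference can be understated. *Csf1r* (14.35 in SOD1 G93A and 14.39 in WT arrays), *Cx3cr1* (13.58 and 13.62) and *C1qa* (13.96 and 13.49) lay above it. Of the neutrophil and monocyte list, *S100a8* (14.14 and 14.49), *S100a9* (14.0 and 14.37) and *Ngp* (13.82 and 14.28) did too. The share of each myeloid cell type among the sorted cells was not tested. The median signal of an array lay between 5.93 and 5.97. A mean log2 signal below 5 is taken here as close to background. The difference between the 3' and 5' probe sets of *Gapdh*, which is larger where the labelled copies of the RNA are shorter, was 4.63, 4.28 and 3.47 in SOD1 G93A arrays 1, 2 and 3, against 5.01, 4.79 and 4.87 in WT arrays 1, 2 and 3 (difference of the means -0.77, p = 0.1 by a two-sided exact permutation test, which cannot go lower with 3 arrays per genotype). The same measure of beta-actin was 3.36, 2.75 and 1.92 in SOD1 G93A arrays, against 3.88, 2.90 and 3.49 in WT arrays (difference -0.75, p = 0.2 by the same exact test). The mean of both measures was lower in SOD1 G93A than in WT arrays. For *Gapdh* every SOD1 G93A array lay below every WT array, a full separation that the exact test cannot call with 3 arrays per genotype. For beta-actin the genotypes overlapped. Within SOD1 G93A both were largest on array 1 and smallest on array 3, as was the members' mean log2 signal (7.10, 6.82 and 6.64). Within WT the order did not match throughout, since both measures were largest on array 1 but smallest on array 2, whereas the members' mean (7.89, 7.45 and 7.29) was lowest on array 3. With the *Gapdh* difference as a covariate the members' median was -0.34, and 0 of 32 members passed in limma (9 were lower at an unadjusted p under 0.05). The part of this measure in the result was not tested further.

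The solute carriers were the role with the most calls, with 4 of 6 lower and a median log2 fold change of -1.10. *Slc39a12*, which encodes a zinc transporter, had log2 signals of 5.03, 4.58 and 4.73 in SOD1 G93A arrays, against 7.0, 6.44 and 6.33 in WT arrays. The genotypes were far apart on every array, and the log2 fold change of -1.81 (SE 0.19, limma adjusted p = 0.00207) was the lowest of the 32 members and stood at rank 4 from the bottom among all genes. The SOD1 G93A mean, 4.78 ± 0.23 (SD, n = 3), is close to background, against 6.59 ± 0.36 (SD, n = 3) in WT arrays, so the 3.51-fold lower signal may understate the difference. The call held in each of the 6 fits that left out 1 array, with adjusted p-values between 0.00150 and 0.0174. The other probe set of this gene was near 3 in both genotypes.

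*Slc1a2*, which encodes the main glutamate transporter of astrocytes, had log2 signals of 7.91, 7.55 and 7.08 in SOD1 G93A arrays, against 9.62, 9.09 and 8.64 in WT arrays. Its mean was 7.52 ± 0.42 in SOD1 G93A and 9.12 ± 0.49 in WT arrays (SD, n = 3 each), a 3.03-fold lower signal (log2 fold change -1.60, SE 0.27, limma adjusted p = 0.0119). The highest SOD1 G93A array was below the lowest WT array by less than the range within either genotype. Without SOD1 G93A replicate 2 the adjusted p was 0.0543. A further probe set of *Slc1a2* was also lower, at -1.43 (adjusted p = 0.0153 over all probe sets), and 3 more had -0.53, 0.02 and 0.28 and did not pass.

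*Slc1a3*, which encodes the second glutamate transporter of astrocytes, had log2 signals of 7.76, 7.67 and 7.83 in SOD1 G93A arrays, against 8.53, 8.40 and 8.28 in WT arrays. Arrays of a genotype lay close together, and the log2 fold change was -0.65 (SE 0.11, limma adjusted p = 0.0133). The adjusted p was 0.0616 without SOD1 G93A replicate 2 and 0.0518 without WT replicate 2. This call rests on 1 probe set whose name ends in x_at, a class that can cross-hybridise. Its other 5 probe sets had log2 fold changes between -0.43 and 0.08, and 0 of them passed, and the gene had -0.43 (adjusted p = 0.262) without suffixed probe sets. *Slc1a2* and *Slc1a3* thus both had a lower signal by the probe set of highest mean, with more than 1 probe set behind *Slc1a2* only.

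*Slc4a4*, of a sodium bicarbonate cotransporter, had log2 signals of 7.90, 7.39 and 6.62 in SOD1 G93A arrays, against 9.61, 8.48 and 8.49 in WT arrays. The log2 fold change was -1.55 (SE 0.37, limma adjusted p = 0.0415), with array 1 the highest of each genotype. This call held only when SOD1 G93A replicate 1 was left out. It was lost without SOD1 G93A replicate 2 (adjusted p = 0.118) or 3 (0.133) and without WT replicate 1 (0.0582), 2 (0.0716) or 3 (0.0828). Its 4 further probe sets had log2 fold changes of -1.11, -0.71, 0.15 and 0.40 and did not pass, and without suffixed probe sets the gene had -0.71 (adjusted p = 0.0685). *Slc7a10*, of a transporter of small neutral amino acids, had -0.53 (adjusted p = 0.0836) with no overlap between genotypes, and *Slc6a11*, of a GABA transporter, had -0.12 (adjusted p = 0.735) with overlap.

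Start regions of 4 members are shown so that genes that were lower (*Slc1a3*, *Aldoc*, *Slc39a12*) can be read beside the filament gene *Gfap*, which was not. Each is the 250 bases before the start of the gene in RefSeq on GRCm38.p6, 5' to 3' on the strand of the gene. Capitals mark matches on either strand to TTCNNNGAA, the core letters bound by STAT factors, or to ACAAT, those bound by SOX factors. *Slc1a3* lies at chr15:8710808-8711057 on the minus strand, *Aldoc* (the first of 2 listed starts) at chr11:78322823-78323072 on the plus strand, *Slc39a12* at chr2:14388148-14388397 on the plus strand and *Gfap* at chr11:102897201-102897450 on the minus strand.
Slc1a3: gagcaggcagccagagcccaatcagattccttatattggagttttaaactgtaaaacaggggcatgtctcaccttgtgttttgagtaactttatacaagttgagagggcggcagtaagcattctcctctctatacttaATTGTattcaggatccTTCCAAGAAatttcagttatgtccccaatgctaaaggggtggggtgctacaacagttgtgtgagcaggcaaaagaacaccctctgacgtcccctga
Aldoc: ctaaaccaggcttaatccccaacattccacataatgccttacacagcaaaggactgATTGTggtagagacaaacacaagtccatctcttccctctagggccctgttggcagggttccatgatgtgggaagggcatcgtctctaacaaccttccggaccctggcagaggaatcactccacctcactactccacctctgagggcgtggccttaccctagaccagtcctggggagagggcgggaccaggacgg
Slc39a12: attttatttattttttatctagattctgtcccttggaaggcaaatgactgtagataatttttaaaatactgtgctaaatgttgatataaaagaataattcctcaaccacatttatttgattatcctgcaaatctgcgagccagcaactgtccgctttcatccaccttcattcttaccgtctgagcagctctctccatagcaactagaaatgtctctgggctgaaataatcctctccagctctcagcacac
Gfap: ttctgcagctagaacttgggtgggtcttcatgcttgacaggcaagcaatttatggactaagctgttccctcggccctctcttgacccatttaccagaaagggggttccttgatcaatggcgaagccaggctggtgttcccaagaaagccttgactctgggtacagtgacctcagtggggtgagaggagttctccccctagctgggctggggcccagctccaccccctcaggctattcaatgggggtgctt
The *Slc1a3* region holds 1 match of each kind and the *Aldoc* region 1 match to ACAAT, while the other two regions hold 0. Of 26 members with an entry, which have 33 listed starts, 4 starts (12.1%) have a STAT match, against 7.02% of all 32851 starts, and 4 (12.1%) a SOX match, against 27.7% of all. The full palindrome bound by nuclear factor I was in 0 of the 33 and in 0.0365% of all. The STAT matches are in *Acsbg1*, *Ntsr2*, *Slc1a3* and the other listed start of *Aldoc*, and the SOX matches in *Aldoc*, *Fabp7*, *Mt3* and *Slc1a3*. Of these genes *Slc1a3* and *Aldoc* were lower, whereas *Acsbg1*, *Ntsr2*, *Fabp7* and *Mt3* did not pass. The 4 regions shown thus do not represent lower and other members as sets. A match is a description of the letters and not a binding site.

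The proteins of water, ion and junction transport had 2 of 6 members lower and a median log2 fold change of -0.95, with all 6 estimates below 0. *Kcnj10*, which encodes an inwardly rectifying potassium channel, had log2 signals of 7.85, 7.61 and 7.43 in SOD1 G93A arrays, against 8.75, 8.38 and 8.20 in WT arrays. It was 1.76-fold lower (log2 fold change -0.82, SE 0.17, limma adjusted p = 0.0239). Without SOD1 G93A replicate 2 or 3 or WT replicate 2 its adjusted p was 0.0896, 0.0974 and 0.0676. *Gjb6*, of a connexin of gap junctions, had 4.42, 4.40 and 4.66 in SOD1 G93A arrays, all close to background, against 5.22, 5.13 and 4.92 in WT arrays. Its log2 fold change of -0.60 (SE 0.13, limma adjusted p = 0.0274) is small, although the genotypes did not overlap. That call was lost without SOD1 G93A replicate 1 (adjusted p = 0.0585), 2 (0.106) or 3 (0.0524) and without WT replicate 1 (0.0582) or 2 (0.0907).

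*Gja1*, of the main connexin of astrocytes, had log2 signals of 8.56, 7.46 and 7.0 in SOD1 G93A arrays, against 10.49, 8.95 and 8.89 in WT arrays. Array 1 stood above the others in both genotypes, and the pooled SD of 0.86 was, with that of *Clu*, the largest of the members. The log2 fold change of -1.77 did not pass (SE 0.48, limma adjusted p = 0.0646), but it did without SOD1 G93A replicate 1 (adjusted p = 0.0251). Of its 5 further probe sets, 2 were lower over all probe sets, at -2.18 (adjusted p = 0.0453) and -1.56 (adjusted p = 0.0239, with a SOD1 G93A mean of 4.08, close to background), and -1.47, -0.37 and 0.15 did not pass. *Aqp4*, which encodes the water channel of the end-feet, had 5.89, 5.25 and 4.46 in SOD1 G93A arrays, against 7.15, 5.93 and 5.76 in WT arrays. SOD1 G93A array 1 lay within the WT range, and the log2 fold change of -1.08 did not pass (SE 0.42, adjusted p = 0.171). *Atp1b2*, of a subunit of the sodium pump, had -1.15 (adjusted p = 0.0524) with no overlap, and passed without SOD1 G93A replicate 1 (adjusted p = 0.0404) or WT replicate 1 (0.0468). By its other probe set *Atp1b2* had -0.08 and did not pass. *Mlc1*, of an end-foot membrane protein, had -0.51 (adjusted p = 0.178).

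Neither intermediate filament gene was lower by its brightest probe set. *Gfap*, the most used marker of astrocytes, had log2 signals of 7.20, 7.39 and 6.82 in SOD1 G93A arrays, against 7.19, 6.63 and 6.59 in WT arrays. The genotypes overlapped, with a mean of 7.14 ± 0.29 in SOD1 G93A and 6.80 ± 0.33 in WT arrays (SD, n = 3 each) and a log2 fold change of 0.33 (SE 0.20, limma adjusted p = 0.377). The *Gfap* probe set used here has a name ending in s_at. The other 2 probe sets of *Gfap* had 0.18 (without such a suffix) and 0.22 and did not pass. *Vim*, of a filament that microglia and vessel cells also make, had 10.18, 10.54 and 10.37 in SOD1 G93A arrays, against 9.61, 10.68 and 10.72 in WT arrays. Its log2 fold change of 0.03 (adjusted p = 0.973) depended on the low WT array 1, and without that array it was -0.34. The 2 further probe sets of *Vim* had -0.53 and -0.59 and did not pass.

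**Figure D2:**
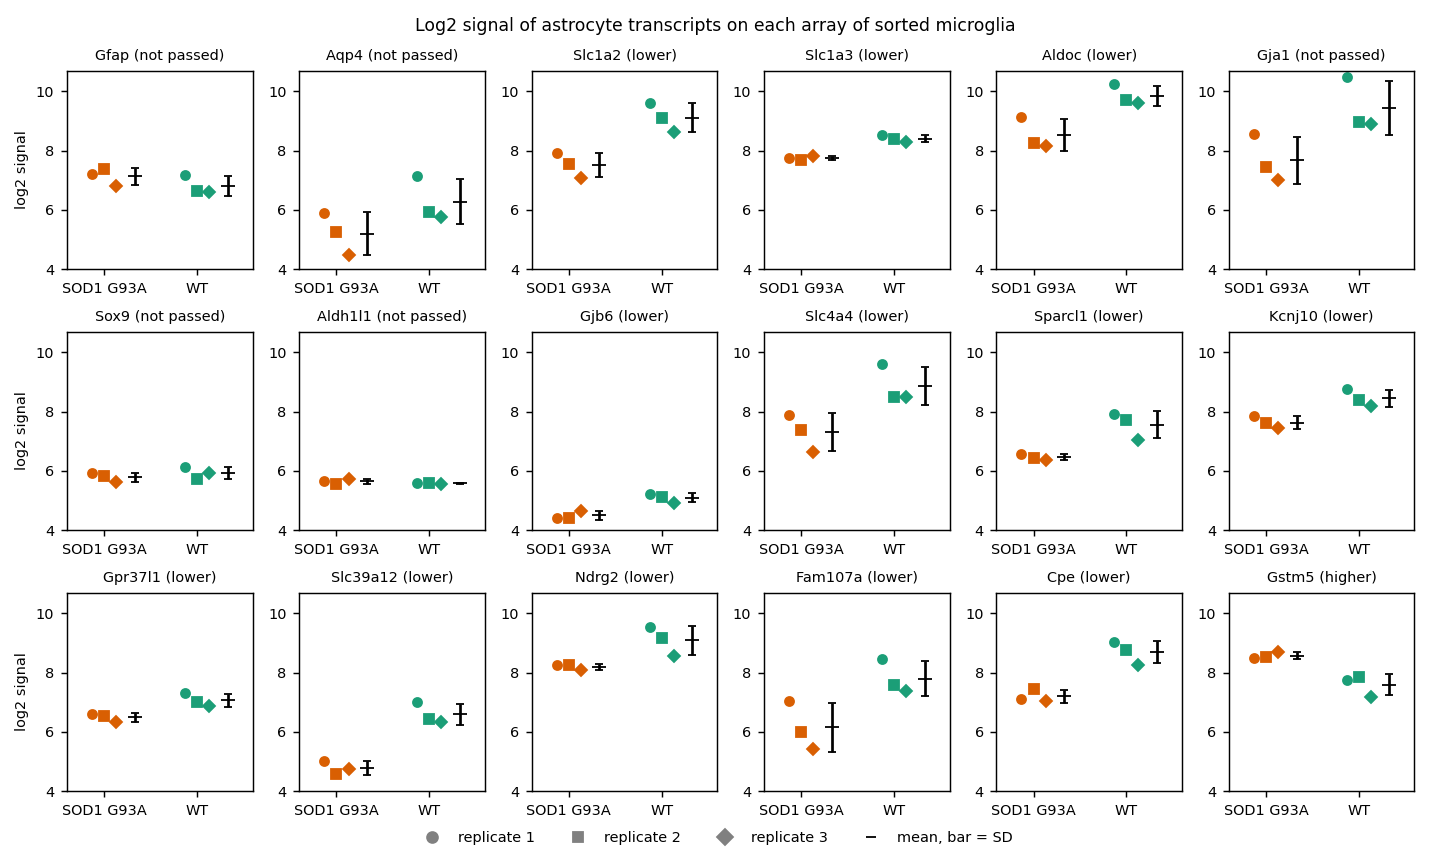
Log2 signal of 18 astrocyte transcripts on each of the 6 arrays (8 defining markers first, then the other members that passed), with the mean and SD of each genotype. The 3 SOD1 G93A arrays of *Slc1a2* lie between 7.08 and 7.91, below the WT arrays, whereas those of *Gfap* lie between 6.82 and 7.39 and overlap the WT arrays.

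Of 10 members of metabolism and binding, 2 were lower and 1 was higher, with a median log2 fold change of -0.36. *Aldoc*, of a brain form of the glycolytic enzyme aldolase, had log2 signals of 9.15, 8.27 and 8.14 in SOD1 G93A arrays, against 10.24, 9.71 and 9.6 in WT arrays. It was 2.52-fold lower (log2 fold change -1.33, SE 0.27, limma adjusted p = 0.0237). The adjusted p was 0.0974 without SOD1 G93A replicate 2, 0.0920 without SOD1 G93A replicate 3, 0.0632 without WT replicate 2 and 0.0605 without WT replicate 3. The other probe set of *Aldoc* had -0.50 (adjusted p = 0.132 over all probe sets), so the size of the fall depends on the probe set. *Ndrg2*, of a stress-responsive protein of astrocytes, had 8.25, 8.25 and 8.07 in SOD1 G93A arrays, against 9.54, 9.16 and 8.57 in WT arrays. The log2 fold change was -0.90 (SE 0.22, limma adjusted p = 0.0428), and the call was lost without SOD1 G93A replicate 1 (adjusted p = 0.0674), 2 (0.119) or 3 (0.152) and without WT replicate 1 (0.0624) or 2 (0.126).

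*Gstm5*, of a glutathione transferase, went the other way, with log2 signals of 8.50, 8.51 and 8.70 in SOD1 G93A arrays, against 7.74, 7.84 and 7.19 in WT arrays. All SOD1 G93A arrays were above the WT arrays, at a log2 fold change of 0.98 (SE 0.17, limma adjusted p = 0.0141), on the 1 probe set of the gene. Its adjusted p was 0.0557 without SOD1 G93A replicate 2 and 0.0671 without SOD1 G93A replicate 3. *Glul*, of glutamine synthetase, which oligodendrocytes and microglia also express, had 12.50, 12.45 and 12.55 in SOD1 G93A arrays, against 12.99, 12.88 and 12.84 in WT arrays. The genotypes did not overlap, but the small log2 fold change of -0.40 did not pass (SE 0.10, adjusted p = 0.0520), and its other probe set had 0.11.

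*Aldh1l1*, of a folate enzyme that is used as a general marker of astrocytes, had log2 signals of 5.66, 5.55 and 5.71 in SOD1 G93A arrays, against 5.58, 5.60 and 5.56 in WT arrays. The values overlapped, at a log2 fold change of 0.06 (SE 0.10, adjusted p = 0.780), and the other probe set was close to background in both genotypes. *Mt3*, of a metallothionein, had 0.06 (adjusted p = 0.858) and *Cbs*, of cystathionine beta-synthase, had -0.03 (adjusted p = 0.919). *Ppp1r3c* (-0.52), which directs a phosphatase to glycogen, *Fabp7* (-0.49), of a fatty acid-binding protein, and *Acsbg1* (-0.33), of an acyl-CoA synthetase, did not pass, although the genotypes did not overlap in any of the 3. By its other probe set *Ppp1r3c* had 0.26 and did not pass.

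Of the secreted and secretory proteins, *Cpe*, of the prohormone-processing carboxypeptidase E, which neurones also express, had log2 signals of 7.10, 7.45 and 7.03 in SOD1 G93A arrays, against 9.02, 8.77 and 8.27 in WT arrays. Its mean was 7.19 ± 0.23 in SOD1 G93A and 8.68 ± 0.38 in WT arrays (SD, n = 3 each), a 2.81-fold lower signal (log2 fold change -1.49, SE 0.20, limma adjusted p = 0.00458). *Cpe* and *Slc39a12* were the 2 members whose call held in each of the 6 fits that left out 1 array, with adjusted p-values of *Cpe* between 0.00606 and 0.0272. By its other probe set *Cpe* had -0.73 and did not pass (limma adjusted p = 0.092 over all probe sets). *Sparcl1*, of a synapse-organising matrix protein that vessel cells also make, had 6.56, 6.44 and 6.38 in SOD1 G93A arrays, against 7.92, 7.73 and 7.04 in WT arrays (log2 fold change -1.10, SE 0.21, limma adjusted p = 0.0178). For this gene the adjusted p was 0.0727 without SOD1 G93A replicate 2, 0.0771 without SOD1 G93A replicate 3 and 0.0684 without WT replicate 2. *Clu*, of the chaperone clusterin, had 9.20, 8.34 and 7.57 in SOD1 G93A arrays, against 10.55, 9.01 and 8.97 in WT arrays. The large spread and the overlap left its log2 fold change of -1.14 short of the threshold (SE 0.48, adjusted p = 0.211), and its 3 further probe sets had -1.19, -0.72 and -0.37.

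Among the receptors, *Gpr37l1*, an orphan receptor gene of astrocytes, had log2 signals of 6.61, 6.52 and 6.33 in SOD1 G93A arrays, against 7.31, 6.99 and 6.87 in WT arrays. The log2 fold change of -0.57 passed by a small margin (SE 0.14, limma adjusted p = 0.0474) and was lost without SOD1 G93A replicate 1 (adjusted p = 0.0525), 2 (0.126) or 3 (0.168) and without WT replicate 1 (0.0895), 2 (0.105) or 3 (0.0713). *Fgfr3*, of a fibroblast growth factor receptor, had -0.79 (adjusted p = 0.136) without overlap. By its other probe set *Fgfr3* had 0.24, with every SOD1 G93A array above every WT array, and did not pass. *Ntsr2*, of a neurotensin receptor, had -0.57 (adjusted p = 0.208) with overlap and passed without SOD1 G93A replicate 1 (-0.84, adjusted p = 0.0288). *Sox9*, which encodes a transcription factor of astrocyte nuclei, had log2 signals of 5.91, 5.81 and 5.62 in SOD1 G93A arrays, against 6.12, 5.73 and 5.92 in WT arrays. Its genotypes overlapped (log2 fold change -0.14, adjusted p = 0.620), and 0 of its 3 probe sets passed. *Fam107a*, of an actin-binding protein, had 7.05, 5.99 and 5.43 in SOD1 G93A arrays, against 8.45, 7.58 and 7.36 in WT arrays. Its log2 fold change was -1.64 (SE 0.40, limma adjusted p = 0.0460), and it was lost without SOD1 G93A replicate 2 (adjusted p = 0.148) or 3 (0.147), without WT replicate 1 (0.0856), 2 (0.0981) or 3 (0.0854), and without suffixed probe sets (-0.47, adjusted p = 0.106).

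The defining markers did not share 1 call. Of 8 (*Gfap*, *Aqp4*, *Slc1a2*, *Slc1a3*, *Gja1*, *Aldh1l1*, *Sox9* and *Aldoc*), 3 were lower and 5 did not pass, with a median of -0.86. Of the 5, *Aldh1l1* (means of 5.64 in SOD1 G93A and 5.58 in WT arrays) and *Sox9* (5.78 and 5.92) lay below the median signal of every array. Their log2 fold changes, 0.06 (SE 0.10) for *Aldh1l1* and -0.14 (SE 0.13) for *Sox9*, lay away from the members' median of -0.58. Other members of low signal passed, namely *Gjb6* (4.49 in SOD1 G93A and 5.09 in WT arrays) and *Slc39a12* (4.78 and 6.59). Whether low signal hid a change in *Aldh1l1* or *Sox9* was not tested. Of the 10 members that other cells of the cord are known to express (*Vim*, *Glul*, *Clu*, *Cpe*, *Sparcl1*, *Fabp7*, *Ndrg2*, *Cbs*, *Atp1b2* and *Gstm5*), 3 were lower and 1 was higher, with a median of -0.69. Of the 14 members with a mean log2 signal of at least 7, 8 were lower and 1 higher (median -1.12), while of the 18 members below it 4 were lower (median -0.52). The background differed too, with 3.98% of all genes lower at or above a mean signal of 7 and 1.40% below it.

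Within a genotype the members varied together across the arrays. SOD1 G93A array 1 was the highest of its genotype in 22 of 32 members and SOD1 G93A array 3 the lowest in 19, while WT array 1 was the highest in 27 of 32 and WT array 3 the lowest in 25. For the 12 lower members, SOD1 G93A array 1 was the highest of its genotype in 9 and WT array 1 in all 12. The mean log2 signal of the 32 members was 7.10, 6.82 and 6.64 on SOD1 G93A arrays 1, 2 and 3, against 7.89, 7.45 and 7.29 on WT arrays 1, 2 and 3. Every SOD1 G93A array thus lay below every WT array in this mean, and array 3 was the lowest of each genotype. By mean log2 signal, array 1 was also the highest of each genotype for the lists of other astrocyte genes, oligodendrocytes, their precursors and ependymal cells described below. The oligodendrocyte genes that passed as lower did not follow this list mean. *Mobp* (10.52), *Bcas1* (10.59) and *Mbp* (12.90) each had their lowest WT signal on array 1. In a principal component analysis of the arrays, the second axis (28%) had both arrays numbered 1 at 35.6 and 34.4. The others lay between -25.1 and -9.2, so this pattern was not particular to the members. With both arrays numbered 1 left out, 17 of 32 members were lower and the median was -0.54, against 12 and -0.58 with all arrays. Calls rose for all genes too, with 837 of 18193 lower in that fit, against 461 with all arrays.

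The further probe sets gave a smaller share of calls. The 20 genes with more than 1 probe set had 41 further ones, of which 3 were lower over all probe sets, 0 were higher and 38 did not pass, against 1.93% lower and 2.71% higher among all 45037 probe sets. The 3 were 1 of *Slc1a2* and 2 of *Gja1*. Of the 41, 24 had a negative estimate and 16 had a mean signal below 5. On the same scale, adjusted over all probe sets, 8 of the 32 probe sets of highest signal were lower and 1 was higher.

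**Figure D3:**
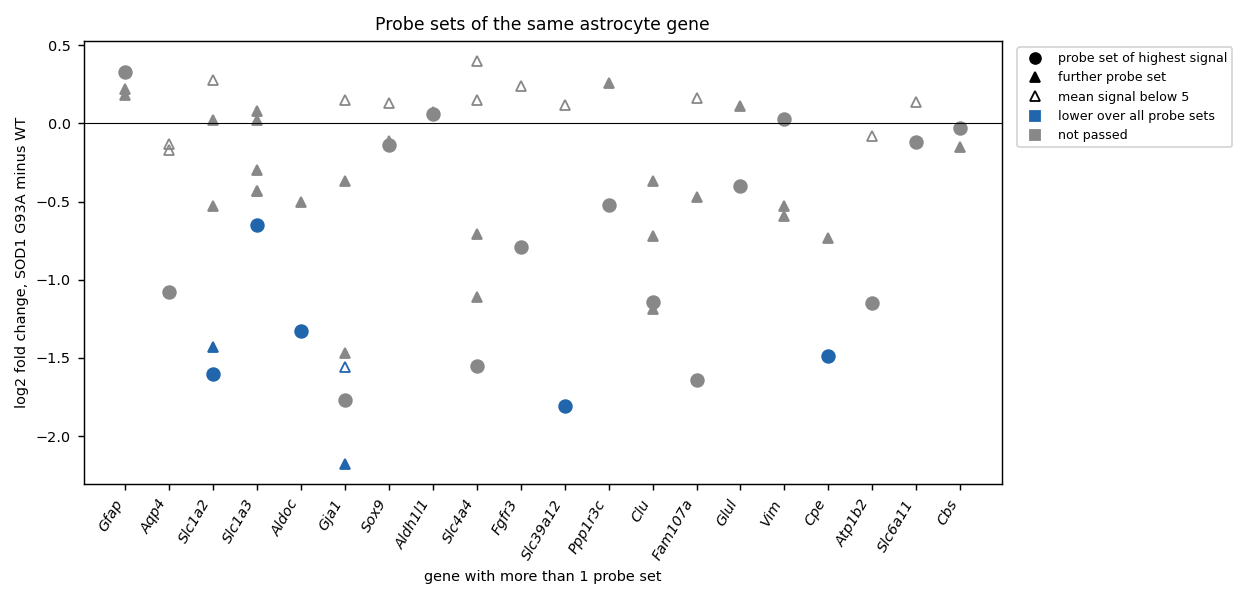
Log2 fold change (SOD1 G93A minus WT) of every probe set of the 20 astrocyte genes that have more than 1, with circles for the probe set of highest signal and triangles for the others, open where the mean signal is below 5. The 3 blue triangles are those of *Slc1a2* (-1.43) and *Gja1* (-2.18 and -1.56).

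A second list of 40 astrocyte genes outside the members, of which 38 were measured, had 6 lower and 1 higher, with a median log2 fold change of -0.20. The largest change among those that passed was the rise of *Cxcl14*, of a chemokine (2.16, adjusted p = 0.00443 from limma). The largest falls were those of *Itih3*, of an inhibitor that binds hyaluronan (-1.53, adjusted p = 0.0175), *S100b*, of a calcium-binding protein used as a glial marker (-1.17, adjusted p = 0.00637), and *Bcan*, of a matrix proteoglycan that precursors of oligodendrocytes share (-1.0, adjusted p = 0.0377). The median of the second list was closer to 0 than that of the members, and no test of this difference was made. Of 15 measured genes of reactive astrocytes, many of which myeloid cells also express, 3 were higher, *Iigp1* (1.27), *Cxcl10* (1.23) and *Gbp2* (0.52), all induced by interferon, and 1 was lower, *Steap4* (-0.82), with a median of -0.08.

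Markers of other cells moved in the same direction in part. Beside the counts that follow, 2.53% of all genes were lower and 4.09% higher. Of 14 measured oligodendrocyte markers 3 were lower (*Mobp*, -2.49, *Bcas1*, -2.03, and *Mbp*, -1.16, all of myelin-forming cells). The WT mean of *Mbp*, 13.54, is near saturation, so its fall may be understated. The mean log2 signal of the 14 ranged from 7.58 to 7.82 in SOD1 G93A and from 8.25 to 8.52 in WT arrays. Of 16 neurone markers 6 were lower, led by *Nefl* (-2.20), of a neurofilament, *Kif5c* (-1.50) and *Kif5a* (-1.38), of kinesin motors, and *Map2* (-1.40), of a microtubule-associated protein of dendrites, with means from 5.16 to 5.29 in SOD1 G93A and from 5.80 to 5.97 in WT arrays. The ranges of the genotypes did not overlap for either list, nor for the members or for 8 markers of border macrophages (8.99 to 9.33 in SOD1 G93A and 9.59 to 9.96 in WT arrays, with 5 lower and 1 higher). In that list *Pf4* (-1.0), *F13a1* (-0.97) and *Maf* (-0.90) were the largest falls and *Ms4a7* (0.80) was the rise. The ranges of the genotypes overlapped for 9 markers of oligodendrocyte precursors (5.62 to 5.96 in SOD1 G93A and 5.67 to 6.02 in WT arrays, with 0 lower by limma and 1 higher, *Cspg4*, 0.81), for 11 of endothelial and mural cells (6.16 to 6.46 in SOD1 G93A and 6.13 to 6.21 in WT arrays, with 0 lower and 1 higher, *Flt1*, 0.87) and for 6 of ependymal cells (6.05 to 6.46 in SOD1 G93A and 6.17 to 6.71 in WT arrays, with 1 lower, *Pltp*, -1.18). For 10 markers of neutrophils and monocytes, of which 3 were lower (*Ccr2*, -1.22, *S100a4*, -1.09, and *Plac8*, -1.04), the range was 10.09 to 10.66 in SOD1 G93A and 10.71 to 11.36 in WT arrays, without overlap. By mean log2 signal this list was lowest on array 1 of each genotype, the array on which the mean of the astrocyte members was highest. Not every marker followed, since *Ccr2* was highest of the WT arrays on array 1 (9.08, against 8.98 and 8.86). Whether these lists share a source with the astrocyte transcripts was not tested.

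**Figure D4:**
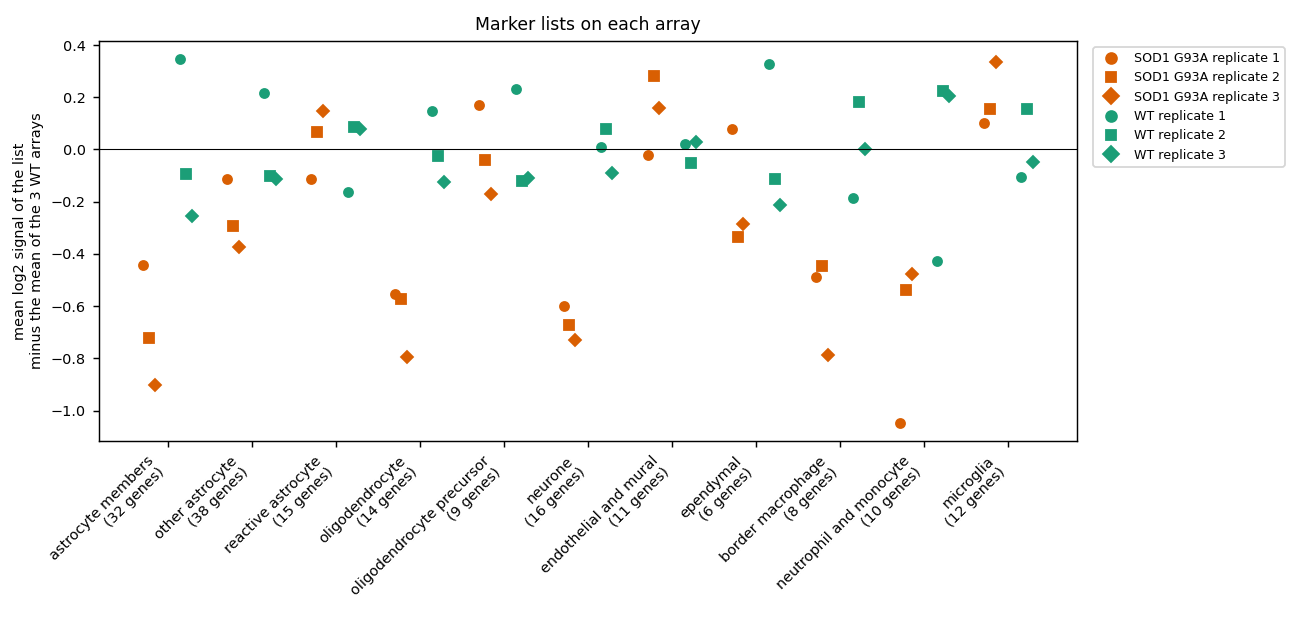
Mean log2 signal of 11 marker lists on each array, less the mean of the 3 WT arrays, with the SOD1 G93A arrays left of the WT arrays in each list. The SOD1 G93A arrays lie below all WT arrays for the 32 astrocyte members, the oligodendrocyte, neurone, border macrophage, and neutrophil and monocyte lists. Array 1 (circles) is the highest of its genotype for the astrocyte members and for the other astrocyte, oligodendrocyte, oligodendrocyte precursor and ependymal lists.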

How the data were processed

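RNA of CD11b-positive cells, sorted after enzymatic dissociation, removal of myelin on sucrose and gating on size and a dead-cell dye, was hybridised to Affymetrix mouse whole-genome arrays, 3 per genotype. The values the authors deposited are log2 signals, summarised per probe set by RMA in Partek per the labels (version not given in the sources used here), whereas the paper's methods name MAS 5.0, whose calls of presence were not used here. The paper describes a double amplification of nanograms of RNA and the labels a standard protocol from micrograms, and long amplification favours the 3' end. Precision is limited by the number of arrays.

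With control probe sets left out, 45037 probe sets were fitted in limma 3.58.1 in R 4.3.3 (lmFit and eBayes, no trend, not robust). Of these 34945 have 1 gene symbol in the platform annotation, 932 several and 9160 none. Adjustment (Benjamini-Hochberg) ran over 18193 genes, each read by its probe set of highest mean among those with that symbol alone, and, where stated, over all probe sets. Gene symbols and starts are from RefSeq on GRCm38.p6. The fit was tested on simulated data (18193 genes, 3 arrays against 3). It recovered 13 of 50 genes with a 1.5-fold change, 42 of 50 with a 2-fold, 47 with a 4-fold and all 50 with an 8-fold change, with 5 false calls. The simulated noise was independent between genes, whereas the members varied together across the real arrays. These counts therefore do not measure how reliable the calls are under such shared shifts. Alternatives were the methods' t-test, eBayes with trend, other probe sets per gene, a minimum signal, centring, array weights, a replicate block, a *Gapdh* covariate and omitted arrays. All members are named. Values per array are given for members that passed, the 8 defining markers and, chosen after their values were seen, *Vim*, *Glul* and *Clu*. Of each other list up to 4 genes with the largest change among those that passed are named, with *Itgam* added as the gene of the sort. Some genes near saturation were added from the microglial and the neutrophil and monocyte lists after their values were seen. The members and lists were chosen with earlier results of these data known. Tables were made in Python 3.11.15 (pandas 2.3.3, numpy 2.4.6) and figures in matplotlib 3.10.9.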

Additional observations from a re-analysis of the deposited data

How the results depend on the processing

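The members' median log2 fold change stayed negative in all settings, between -0.70 and -0.44 with 1 array left out. The count of lower members ranged from 2 (without SOD1 G93A replicate 2) to 12 with 1 array left out, with 4 without SOD1 G93A replicate 3 and 3 without WT replicate 2, that of higher members from 0 to 1, and that of all genes that differed from 358 to 1166, against 1206 with all arrays. The methods' t-test with unequal variance called 0 members in either direction and 0 of all genes after adjustment (12 members were lower at an unadjusted p under 0.05). With the *Gapdh* 3' minus 5' covariate, limma called 0 members lower, 0 higher and 94 of all genes, and *Sox9* (0.09), *Ntsr2* (0.07), *Clu* (0.05), *Slc6a11* (0.06) and *Vim* (-0.19) changed sign. The median standard error over all genes was 0.181 with it and 0.126 without it. The replicate block gave 23 lower members, among them the 12, and 2221 genes. Deviations of same-numbered arrays from their group means correlated at 0.44, 0.24 and 0.04 over genes, and SOD1 G93A array 3 correlated better with WT array 2 (0.42), so the numbers were not taken as pairs. Array weights gave 1819 genes and the fit without both arrays numbered 1 gave 1842. Estimates near 0 also changed sign for *Vim* (-0.37 as the mean of all probe sets, -0.06 with array weights, -0.24 without both arrays numbered 1, and from -0.34 to 0.22 with 1 array left out), *Slc6a11* (0.01 as the mean of all probe sets, from -0.30 to 0.03 with 1 array left out), *Cbs* (0.00 without both arrays numbered 1, from -0.10 to 0.03 with 1 left out) and *Mt3* (from -0.04 to 0.18 with 1 left out). The causes were not tested. Signals near background understate a change.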
